A study of Mus musculus with 5 samples.

Results

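The mRNA levels of 31 genes of cholesterol and lipid synthesis were examined in neural precursor cells of the adult mouse forebrain. The genes were listed by name and with no threshold on their values, though earlier results of these data were known when the list was made. They comprise 7 genes of the mevalonate and isoprenoid steps, 11 of the steps from squalene to cholesterol, 5 encoding the SREBP factors and their regulators, 3 of sterol transport and export and 5 of fatty acid synthesis. All 31 were found by symbol among the 46078 genes of the tables, each under a single Ensembl identifier, and all 31 were among the 13870 genes with a mean of at least 1 TPM (a share of transcripts that accounts for gene length and sums to the same total in each library). The cells were taken from the subventricular zone of C57BL/6 mice, grown as neurospheres with EGF and FGF, plated and then given PBS, which the labels call a sham exposure. RNA was collected after 1 h in 2 libraries (replicates 1 and 2) and after 8 h in 3 libraries (replicates 13, 14 and 15), and time after PBS is the only difference between the groups in the labels. All donors are labelled as female, 5 to 8 weeks of age and of genotype "No mutation", while the methods of the study give an older age. No library without PBS was analysed here, and libraries of the same project with hydrogen peroxide were not analysed here either.

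Cells make cholesterol from acetyl-CoA through mevalonate, isoprenoid units, squalene and lanosterol. The pathway is governed by SREBP transcription factors, which are held in the endoplasmic reticulum by Scap and the Insig proteins while sterols are plentiful and are released to the nucleus when sterols are scarce. SREBP2 mainly drives the sterol genes and SREBP1 the fatty acid genes, whereas surplus sterol activates the LXR receptors, which induce the exporters Abca1 and Abcg1. In the brain, which is shielded from plasma lipoproteins, cholesterol is made locally, and dividing cells need it for new membrane.

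The sequences before the start sites of the 5 synthesis genes with the highest 8 h to 1 h ratio, and of the exporter Abca1, are shown because their values lay on opposite sides of the 1 h libraries. They are the last 250 bases before the RefSeq start site (GRCm38.p6), written 5′ to 3′ on the strand of the gene. Capitals mark the NF-Y motif CCAAT on either strand (ATTGG on the other), and in Hmgcs1 also a match to TCACNCNAC, a loosened form of the sterol regulatory element.
Lss (chr10:76531355-76531604, + strand): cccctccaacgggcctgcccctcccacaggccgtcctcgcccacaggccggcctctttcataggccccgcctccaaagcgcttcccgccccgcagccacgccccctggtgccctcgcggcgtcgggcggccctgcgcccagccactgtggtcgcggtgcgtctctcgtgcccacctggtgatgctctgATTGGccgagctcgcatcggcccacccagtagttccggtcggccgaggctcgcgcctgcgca
Idi1 (chr13:8885356-8885605, + strand): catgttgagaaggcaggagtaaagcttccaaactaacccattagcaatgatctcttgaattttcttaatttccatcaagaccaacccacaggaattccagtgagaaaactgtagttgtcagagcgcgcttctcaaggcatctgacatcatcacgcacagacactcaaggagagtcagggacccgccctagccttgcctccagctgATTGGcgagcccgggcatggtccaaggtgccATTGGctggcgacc
Mvd (chr8:122443423-122443672, - strand): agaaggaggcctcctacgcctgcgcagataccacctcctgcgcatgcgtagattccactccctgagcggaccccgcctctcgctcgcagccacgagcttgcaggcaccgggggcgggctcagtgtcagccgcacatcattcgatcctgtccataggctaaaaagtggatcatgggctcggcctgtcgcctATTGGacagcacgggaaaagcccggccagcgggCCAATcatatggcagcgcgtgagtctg
Hmgcs1 (chr13:119690101-119690350, + strand): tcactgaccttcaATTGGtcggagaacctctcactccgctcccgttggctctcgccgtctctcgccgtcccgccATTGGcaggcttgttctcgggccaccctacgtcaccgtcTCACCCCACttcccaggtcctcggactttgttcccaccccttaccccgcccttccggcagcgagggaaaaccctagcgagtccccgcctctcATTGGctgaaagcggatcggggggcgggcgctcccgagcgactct
Cyp51 (chr5:4104698-4104947, - strand): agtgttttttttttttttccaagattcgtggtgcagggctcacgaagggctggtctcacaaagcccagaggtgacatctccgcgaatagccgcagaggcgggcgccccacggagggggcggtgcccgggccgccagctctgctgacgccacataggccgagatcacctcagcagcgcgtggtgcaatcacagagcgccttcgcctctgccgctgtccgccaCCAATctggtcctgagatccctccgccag
Abca1 (chr4:53159896-53160145, - strand): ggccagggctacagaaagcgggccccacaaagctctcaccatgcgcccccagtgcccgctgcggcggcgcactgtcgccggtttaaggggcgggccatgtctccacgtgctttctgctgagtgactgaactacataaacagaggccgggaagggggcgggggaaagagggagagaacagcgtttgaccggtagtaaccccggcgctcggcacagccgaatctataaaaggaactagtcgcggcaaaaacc
RefSeq windows that run from 250 bases before to 50 bases after the start matched 24 of the 31 genes, with 32 windows among 32851 in all. Scd1, Scd2, Stard4, Fdps, Sqle, Fdft1 and Abcg1 had no entry. CCAAT, read on both strands, was found in 21 of the 32 windows (65.6%), against 37.4% of all windows, and the Sp1 motif GGGCGG in 25 (78.1%), against 35.7%. The E-box CACGTG was found in 7 windows (21.9%), against 7.15% of all. The sterol regulatory form TCACNCCAC was found in 1 window, that of Hmgcs1 (3.12% against 1.24%), and the looser TCACNCNAC, which includes it, in those of Hmgcs1 and Nsdhl (6.25% against 2.7%). The printed stretches hold 3 CCAAT motifs in Hmgcs1, 2 in Idi1, 2 in Mvd, 1 in Lss, 1 in Cyp51 and 0 in Abca1. Among these genes Abca1 alone had CACGTG in its window, and GGGCGG was found in the windows of all of them. The shares over all windows were not limited to expressed genes, whereas all 31 genes had a mean of at least 1 TPM. These matches describe letters in the windows and no binding was measured.

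The libraries did not divide by time alone. Identifiers in the labels fall into 2 number series of unstated meaning. Series 1 holds both 1 h libraries and 8 h replicate 14, and series 2 holds 8 h replicates 13 and 15. The libraries of series 1 go against the female label, because Xist, which is expressed from the inactive X chromosome, was at 0.0285 to 0.0611 TPM and the Y-linked Ddx3y at 26.8 to 37.0 TPM. The libraries of series 2 had 165.3 and 199.7 TPM of Xist, and Ddx3y was listed at 0. Mitochondrially encoded genes took 10.7% to 11.1% of all TPM in series 1 and 6.23% and 6.30% in series 2. The neural stem and precursor markers, which check the labelled cell type, were at 1 TPM or more for 8 of 8 genes and summed to 11252 to 14427 TPM per library. Most of each sum was Fabp7, with 7679 to 10076 TPM. The least abundant, Hes5, had 13.0 and 24.6 TPM at 1 h. It was lower at 8 h without overlap between groups (6.88 to 9.57 TPM), against 9.43% of all genes. Between 13681 and 13967 genes reached 1 TPM in a library, and the ratio of coverage to FPKM, which scales with depth, lay between 3.999 and 5.21.

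The enzymes that make cholesterol had higher mRNA levels in 8 h replicates 13 and 15, where their mean was between 1.54-fold (Msmo1) and 3.46-fold (Lss) that at 1 h, while 8 h replicate 14 lay close to the 1 h libraries. The 31 genes together took 0.489% and 0.524% of all TPM at 1 h, 0.518% in 8 h replicate 14 and 1.02% and 0.96% in 8 h replicates 13 and 15. In 8 h replicate 13, 27 of the 31 genes had their highest value of the 5 libraries, a count for which no share over all genes was taken. Abca1 ran the other way, with its lowest values in the same pair. With limma on log2(TPM + 1) over all 5 libraries, 0 of the 31 genes passed both thresholds of a call, which were an adjusted p no higher than 0.05 and a log2 fold change beyond 1 in either direction. With the adjusted p alone 0 of the 31 passed, against 0.0433% of all genes. Of all 13870 genes tested, 0.0144% were called higher and 0.0288% lower at 8 h. At an unadjusted p under 0.05, 14 of the 31 genes were higher (9.52% of all genes) and 1, Abca1, was lower (2.82%).

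**Figure D1:**
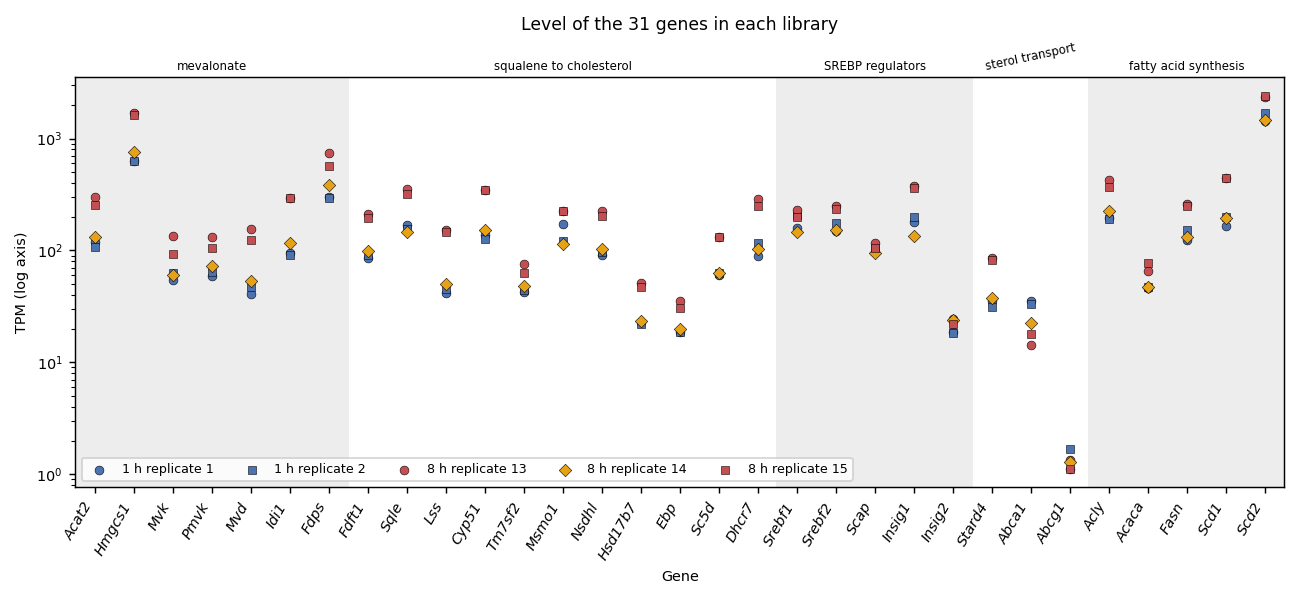
TPM (log axis) of the 31 genes, ordered along the horizontal axis by role, with 1 point per library. For most synthesis genes 8 h replicates 13 and 15 lie above a cluster of the other 3 libraries, and for Abca1 they lie below it.

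The median log2 fold change of the 31 genes, 8 h against 1 h, was 0.70, with 29 of 31 above 0, against a median of 0.10 over all genes tested. By role, the median was 0.95 over the mevalonate genes, 0.75 over the genes from squalene to cholesterol, 0.57 over the fatty acid genes, 0.34 over the SREBP factors and their regulators and -0.089 over the transport genes. All values of 8 h lay above all values of 1 h for 18 of the 31 genes, against 23.7% of all genes, and below for Abca1 alone, against 9.43%. All log2 fold changes from TPM are on the log2(TPM + 1) scale, which understates those of low genes. Values written as -fold are ratios of mean TPM with nothing added. In bulk RNA, fewer cells that express a gene and less of its RNA per cell cannot be told apart.

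**Figure D2:**
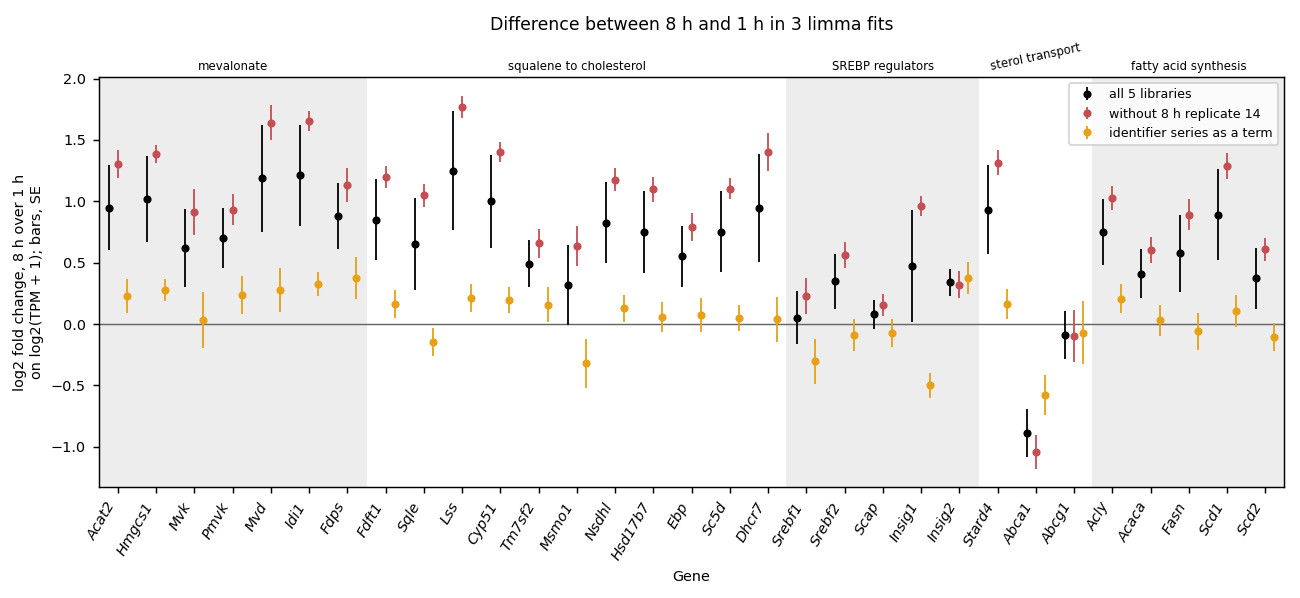
Log2 fold change of each of the 31 genes, 8 h over 1 h, as limma estimates (points) with standard errors (bars) on log2(TPM + 1), from all 5 libraries (black), without 8 h replicate 14 (red) and with the identifier series as a further term (yellow). Red points lie above black ones for the enzymes, as for Lss (1.77 and 1.25), and yellow points lie near 0, while Abca1 is below 0 in all 3 fits.

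Among the 7 mevalonate and isoprenoid genes, Hmgcs1 and Fdps had the highest levels. Hmgcs1, the HMG-CoA synthase of the cytosol, stood second of the 31 genes by mean TPM, with 632 and 629 at 1 h against 1681, 765 and 1617 TPM in 8 h replicates 13, 14 and 15. All 3 values at 8 h exceeded both at 1 h, and 8 h replicate 14 was much nearer to the 1 h values than to the others. The means were 630.4 ± 1.63 TPM (SD, n = 2) at 1 h and 1354 ± 511 TPM (SD, n = 3) at 8 h, and the log2 fold change of 1.02 ± 0.35 (SE) was not called by limma (adjusted p = 0.371).

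Acat2, which joins acetyl-CoA units at the entry of the pathway, had 117.9 and 106 at 1 h against 303, 131 and 256 TPM at 8 h in the same order (log2 fold change 0.95 ± 0.35, limma, adjusted p = 0.385). Mvd, which makes isopentenyl diphosphate from mevalonate diphosphate, had 40.7 and 47.2 at 1 h against 156, 53.3 and 123 TPM at 8 h (1.19 ± 0.44, adjusted p = 0.385). Idi1, which isomerises isopentenyl diphosphate, had 94.9 and 90.8 at 1 h against 295, 116.9 and 294 TPM at 8 h (1.21 ± 0.41, adjusted p = 0.370). In all 3 genes the groups did not overlap, and 8 h replicate 14 exceeded the higher 1 h value by far less than the other 8 h libraries did.

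Fdps, which makes farnesyl diphosphate, the last intermediate shared with the isoprenoid branches, had 299 and 292 at 1 h against 749, 385 and 567 TPM at 8 h (log2 fold change 0.88 ± 0.27, limma, adjusted p = 0.345). Its 8 h replicate 14 stood 1.3-fold above the 1 h mean, the second highest such ratio of the 31 genes after that of Insig2. The kinases Pmvk and Mvk complete the 7 genes. Pmvk did not overlap between groups (59.1 and 63.5 TPM against 72.3 to 131 TPM). Mvk did, because 8 h replicate 14 (59.97 TPM) lay below 1 h replicate 2 (63.0 TPM). Over the 7 genes the summed level was 1298 and 1293 TPM at 1 h, 1583 TPM for replicate 14 at 8 h, and 3449 and 3054 TPM for replicates 13 and 15.

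Among the enzymes from squalene to cholesterol, Lss, the lanosterol synthase that closes the sterol rings, had the highest 8 h to 1 h ratio of the 31 genes. It had 41.4 and 44.8 at 1 h against 154, 49.97 and 145 TPM in 8 h replicates 13, 14 and 15. The 8 h values did not overlap those at 1 h, and replicates 13 and 15 averaged 3.46-fold the 1 h mean while replicate 14 stood at 1.16-fold. The log2 fold change was 1.25 ± 0.48 (SE, limma, adjusted p = 0.397).

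Cyp51, the lanosterol demethylase, had 138 and 126 at 1 h against 351, 151 and 350.1 TPM at 8 h (log2 fold change 1.00 ± 0.38, limma, adjusted p = 0.391). Fdft1, the squalene synthase that commits farnesyl units to sterols, had 85.6 and 91.0 at 1 h against 212, 98.9 and 195 TPM at 8 h (0.85 ± 0.33, adjusted p = 0.396). Nsdhl, a sterol dehydrogenase encoded on the X chromosome, had 91.8 and 96.0 at 1 h against 224, 103 and 203 TPM at 8 h (0.83 ± 0.33, adjusted p = 0.402). None of the 3 genes overlapped between groups, and in each replicate 14 stood at 1.14-fold the 1 h mean or less.

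The other 7 enzymes of this stretch had log2 fold changes from 0.32 (Msmo1) to 0.95 (Dhcr7), and 0 of them were called. Their groups did not overlap for Hsd17b7, Sc5d, Tm7sf2 and Ebp, the last of which is also X-linked. They overlapped for Dhcr7, the reductase of the last step, for Sqle, the squalene epoxidase, and for Msmo1. Sqle had 169 and 157 at 1 h against 356, 147 and 321 TPM at 8 h, so that 8 h replicate 14 had the lowest value of the 5 libraries. In Msmo1, the 1 h replicates themselves differed (171 and 121 TPM), and 8 h replicate 14 was again lowest (115 TPM).

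Of the 5 genes that regulate the pathway, 1, Insig2, was higher at 8 h without overlap between groups, against 23.7% of all genes. Srebf2, which encodes SREBP2, had 150.4 and 177 at 1 h against 250.5, 154 and 234 TPM in 8 h replicates 13, 14 and 15 (log2 fold change 0.35 ± 0.23, limma, adjusted p = 0.498). Srebf1, which encodes SREBP1, had 159.8 and 207 at 1 h against 230.3, 147 and 198 TPM at 8 h (0.053 ± 0.21, adjusted p = 0.912). The groups overlapped for both, and the sign of the Srebf1 difference changed with the scaling (-0.054 after median-ratio scaling).

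Insig1, a retention protein that is itself an SREBP target, had 181 and 198 at 1 h against 376, 134 and 363 TPM at 8 h (log2 fold change 0.47 ± 0.45, limma, adjusted p = 0.619). Its 8 h replicate 14 was the lowest of the 5 libraries, 0.705-fold the 1 h mean, while replicates 13 and 15 averaged 1.95-fold. Insig2, its paralog, had a different order, with 18.5 and 18.2 at 1 h against 24.5, 24.1 and 21.9 TPM at 8 h (0.34 ± 0.11, adjusted p = 0.369). Here replicate 14 sat with the other 8 h libraries, and the groups did not overlap. Scap, the escort protein, lay between 94.1 and 116 TPM in all libraries.

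Of the transport genes, Stard4, which carries cholesterol through the cytosol, followed the enzymes, with 35.0 and 31.4 at 1 h against 85.4, 37.3 and 82.9 TPM at 8 h (log2 fold change 0.93 ± 0.36, limma, adjusted p = 0.4). Abca1, the LXR-induced exporter of cholesterol to apolipoproteins, had 35.2 and 33.1 at 1 h against 14.3, 22.6 and 18.03 TPM at 8 h. All 3 values at 8 h lay below both at 1 h, and that of replicate 14 lay between the others and the 1 h libraries, at 0.66-fold the 1 h mean. Its log2 fold change of -0.89 ± 0.19 (SE) had the lowest adjusted p of the 31 genes (limma, adjusted p = 0.285). Abcg1, the second LXR-induced exporter, was the least abundant of the set, with 1.12 and 1.68 at 1 h against 1.34, 1.27 and 1.12 TPM at 8 h (-0.089 ± 0.20, adjusted p = 0.832), and its groups overlapped.

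Among the fatty acid genes, Acly, which makes cytosolic acetyl-CoA from citrate, had 195 and 192 at 1 h against 424, 223 and 368 TPM at 8 h (log2 fold change 0.75 ± 0.27, limma, adjusted p = 0.380). Acaca, the acetyl-CoA carboxylase, also did not overlap between groups, though 8 h replicate 14 (47.5 TPM) exceeded the higher 1 h value (46.7 TPM) only slightly. The groups overlapped for Fasn, the fatty acid synthase, and for both desaturases. Scd2 had the highest mean of the 31 genes, with 1450.3 and 1693 at 1 h against 2353, 1458 and 2428 TPM at 8 h. Scd1 had 167 and 198 at 1 h against 449, 196 and 440.1 TPM at 8 h, so that replicates 13 and 15 averaged 2.44-fold the 1 h mean for Scd1 and 1.52-fold for Scd2.

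The call for the set turned on 8 h replicate 14. Without it, limma called 17 of the 31 genes, of which 16 were higher (2.97% of all genes) and 1, Abca1, was lower at 8 h (1.12%). The 16 comprise 5 of the 7 mevalonate genes, 8 of the 11 genes from squalene to cholesterol, Stard4, Acly and Scd1, and 0 of the 5 SREBP factors and regulators. Log2 fold changes of the called genes reached 1.77 for Lss (adjusted p = 0.00169) and 1.65 for Idi1 (adjusted p = 0.00169), and Abca1 had -1.04 (adjusted p = 0.00841). Insig1 (0.96, adjusted p = 0.00316) and Srebf2 (0.56, adjusted p = 0.0211) passed the adjusted p but not the fold. In this fit every 8 h library belongs to series 2 and every 1 h library to series 1, so time and series cannot be told apart.

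Read by series, 27 of the 31 genes were higher in both libraries of series 2 than in all 3 of series 1 (39.8% of all genes), and 1, Abca1, was lower (13.5%). The 3 genes with overlap were Srebf1, Insig2 and Abcg1. Replicates 13 and 15 exceeded the 1 h mean by more than 1 on the log2 scale for 16 genes (3.27% of all genes). The median difference from 1 h was 1.03 for series 2 and 0.073 for 8 h replicate 14, against 0.14 and 0.013 over all genes.

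Replicate 14 is the only 8 h library of the same series as the 1 h libraries, and it lay above both of them for 18 of the 31 genes (37.6% of all genes) and below both for 6 (33.4%). When the series was added to the model, which leaves this library to carry the time difference, limma called 0 of the 31 genes, 3 being higher (4.98% of all genes) and 2 lower (4.08%) at an unadjusted p under 0.05. In all, 0.036% and 0.101% of genes were called higher and lower in that fit. In series 1 alone 0 members were called, against 0.0288% of genes higher and 0.0216% lower. With the series in the model the estimate was 0.38 for Fdps, 0.37 for Insig2, 0.33 for Idi1 and 0.28 for Hmgcs1, and -0.58 for Abca1 (limma, adjusted p = 0.424) and -0.50 for Insig1 (adjusted p = 0.312). A time difference in the mevalonate genes, with a median of 0.28 in this library, was thus not detectable with these libraries.

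**Figure D3:**
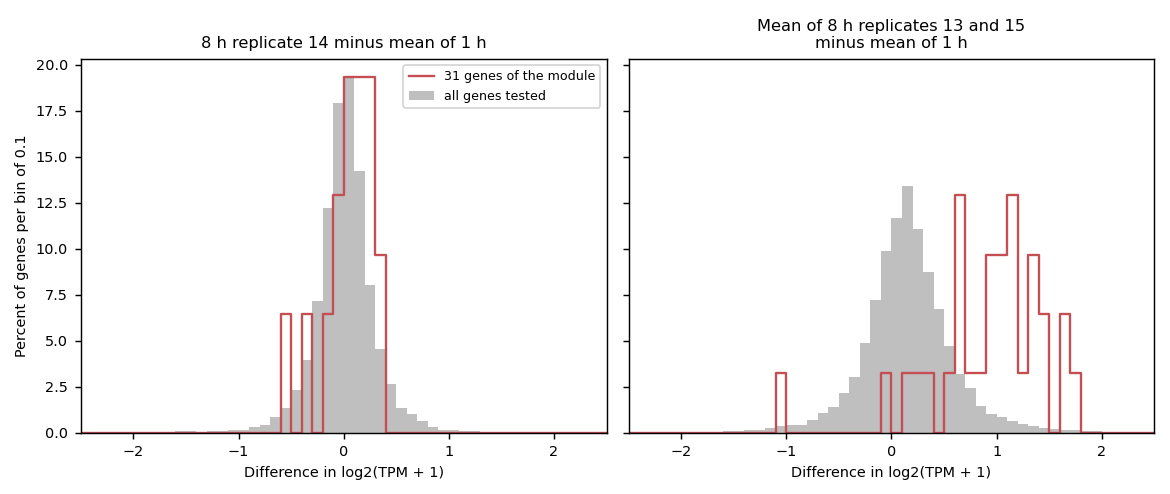
Percent of genes per bin of the difference in log2(TPM + 1) from the 1 h mean, for 8 h replicate 14 (left) and the mean of 8 h replicates 13 and 15 (right), over the 13870 genes tested (grey bars) and the 31 genes (red outline). The 31 genes have a median of 0.073 on the left and 1.03 on the right.

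Other genes of the pathway were listed by role, and 40 of 41 were found by symbol and 37 tested. Their median log2 fold change was 0.26, and 0 of them were called with all 5 libraries by limma, with 7 higher (9.52% of all genes) and 1 lower (2.82%) at an unadjusted p under 0.05. By role the median was 0.53 over the genes of fatty acid elongation, desaturation and supply, 0.49 over other sterol-responsive genes, 0.26 over LXR factors and sterol turnover, 0.23 over the isoprenoid branch and 0.14 over SREBP processing and sterol sensing. Of the 37 genes, 29 were higher in both libraries of series 2 than in all of series 1 (39.8% of all genes), and Fnta, Mylip and Pgrmc1 were lower (13.5%). Without 8 h replicate 14, limma called 4 higher (2.97% of all genes), which were Aacs, Fads2, Nr1h3 and Tmem97. Tmem97, a sterol-regulated membrane protein, had 47.1 and 47.1 at 1 h against 105, 53.9 and 97.5 TPM at 8 h in replicates 13, 14 and 15. Mylip, an LXR-induced ubiquitin ligase, was lower at 8 h like Abca1, with 1.85 and 1.78 at 1 h against 0.776, 1.02 and 0.602 TPM at 8 h. Its mean of 1.21 TPM was near the filter of 1 TPM. Of the 7 genes tested among LXR factors and sterol turnover, 5 had a log2 fold change above 0. Nr1h3, which encodes LXR alpha, had 1.76 and 1.36 at 1 h against 4.76, 1.87 and 4.20 TPM at 8 h.

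Markers of proliferation and of astrocytes were higher in the same libraries as the set. The 10 proliferation markers summed to 922 and 934 TPM at 1 h, 848 TPM in replicate 14 at 8 h, and 1682 and 1808 TPM in series 2, and 10 of 10 were higher in series 2 than in series 1 (39.8% of all genes). The 6 astrocyte markers summed to 253 to 284 TPM in series 1 and 527 and 575 TPM in series 2, with 5 of 6 higher, to be read against the same 39.8%. The 8 oligodendrocyte lineage markers, of a cell type with high sterol synthesis, summed to 1605 to 2243 TPM in series 1 and 2126 and 2449 TPM in series 2. Within that list the myelin genes went the other way, with 27.8 to 38.5 TPM of Mbp in series 1 against 7.96 and 10.99 TPM in series 2. The 6 neuron markers summed to 278 to 467 TPM in series 1 and 216 and 243 TPM in series 2. Most of each sum was Map2, with 405 TPM in 8 h replicate 14 and 173 to 217 TPM in the other libraries. Of the 6, 3 were lower in series 2 than in series 1 (13.5% of all genes) and 1, Snap25, was higher (39.8%). Of 5 microglia markers 0 reached a mean of 1 TPM, with sums of 0.461 to 1.47 TPM and with Aif1 and Tmem119 listed at 0 in every library, and the endothelial Cldn5 and Cdh5 and the ependymal Tmem212 were likewise at 0. The endothelial sums were 11.8 to 15.4 TPM and the ependymal sums 16.3 to 27.5 TPM. The part of proliferation, sex-linked expression, mitochondrial share and these cell types in the differences of the 31 genes was not tested.

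The count table holds 24 of the 31 genes, and its 8 h columns do not match the TPM tables of the same name. Within 0.1 log2 over 7340 genes, the 1 h columns matched their own tables for 77.2%. For the 8 h column under the name of replicate 13 the share was 24.8% with its own table and 78.2% with that of replicate 14, and for the one named 15 it was 41.0% with its own and 78.3% with that of replicate 13. The one named 14 reached at most 39.0% with any table, and no column matched the table of replicate 15. The columns held 13988166 to 18572154 counts over the listed genes.

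By name, the column of 8 h replicate 15 had the highest CPM (counts scaled to the column total) for 20 of the 24 genes. The share over all genes was not taken for this count. The median difference from 1 h over the 24 genes was 0.98 log2 in this column, 0.10 in the column named replicate 13 and 0.30 in that named replicate 14. In the TPM tables of the same 24 genes it was 0.89, 1.10 and 0.090 for replicates 15, 13 and 14. Set against the table it matched, the column named 15 had 0.98 beside 1.10 for the table of replicate 13. The column named 13 had 0.10 beside 0.090 for the table of replicate 14. The edgeR quasi-likelihood test called 0 of the 24 genes, and 0 of all 7590 tested (0%). At an unadjusted p under 0.05 edgeR found 1 of the 24 genes, Stard4, which was higher at 8 h (1.29% of all genes were higher and 1.33% lower). DESeq2 found 6 higher (1.58% of all genes) and limma-voom 0 (0.896%). The median log2 fold change of the 24 genes was 0.49 (23 above 0), against 0.0061 over all genes, and it was 0.15 without the column named 8 h replicate 15.

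Lss, the lanosterol synthase, had 206 and 221 CPM at 1 h and 249.2, 284 and 587 CPM in the columns named 8 h replicates 13, 14 and 15 (log2 fold change 0.78 ± 0.37, SE, edgeR, adjusted p = 0.966). Stard4, the sterol carrier, had 113 and 106 CPM at 1 h and 123, 178 and 263 CPM at 8 h (0.75 ± 0.30, adjusted p = 0.966). Both genes were without overlap between times, as were 11 of the 24 genes on the higher side (11.6% of all genes) and 0 on the lower side (7.05%). Abca1 did overlap here, with 252 and 241 CPM at 1 h and 162, 304 and 92.1 CPM at 8 h, the highest value being in the column that matched no table.

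**Figure D4:**
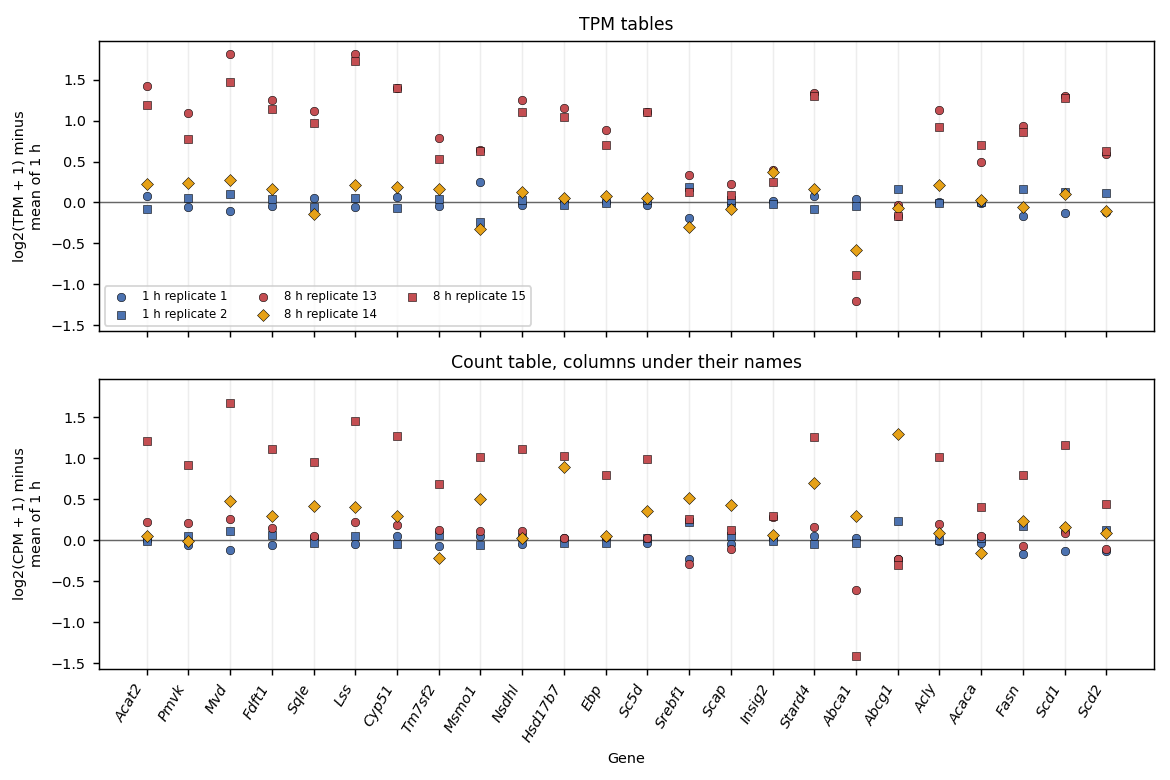
Difference from the 1 h mean of each of the 24 genes held in both kinds of file, in log2(TPM + 1) from the TPM tables (top) and log2(CPM + 1) from the count columns under their names (bottom), with 1 point per library or column. At the top, replicates 13 and 15 are high together. At the bottom only the column named 8 h replicate 15 is high for most genes (median 0.98), and the one named 13 lies near 0 (median 0.10). The column named 15 matched the TPM table of replicate 13, and the one named 13 matched that of replicate 14.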

How the data were processed

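RNA-seq of 5 libraries of subventricular zone precursor cells was analysed. Per the labels, poly-A RNA was sequenced from stranded libraries (bcl2fastq 2.19.1.403, GRCm38). By the methods of the study, the authors aligned the reads with STAR and counted them with featureCounts through nf-core/rnaseq. The count table deposited by the authors holds unnormalised read counts for 7599 genes, so its totals cover part of the depth, and its columns were taken by name (0 left unassigned). The authors also deposited a table per library with TPM, FPKM and per-base coverage, whose tool is not given. The deposited FPKM and coverage served only for their ratio. Gene coordinates and symbols are those of the tables.

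TPM was summed per gene identifier (15 to 20 extra rows per table). Genes with a mean of at least 1 TPM were tested for 8 h against 1 h with limma 3.58.1 (R 4.3.3, intensity trend) on log2(TPM + 1), and counts with edgeR 4.0.16 (quasi-likelihood, TMM, filterByExpr). P-values were adjusted by Benjamini-Hochberg over all genes. A call needed an adjusted p no higher than 0.05 and a log2 fold change beyond 1 in either direction, the thresholds of the study for its other RNA-seq data. Alternatives were DESeq2 1.42.0, limma-voom, RLE normalisation, other filters, a pseudocount of 0.1, median-ratio scaling, leaving out mitochondrially encoded genes, the identifier series as a term, series 1 alone and leaving out each library. The procedure was tested on simulated data. These had independent noise in each library, no identifier series and the same planted change in every 8 h library. They therefore do not show how the fits behave when the 8 h libraries divide by series.

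The members and gene lists were chosen with earlier results of these data known. Full values were to be given for called members, for up to 12 members without overlap that had the highest mean or largest fold change, and for the SREBP genes, the Insig genes, Abca1 and Abcg1. Further members (Sqle, Msmo1, Scd1, Scd2, Pmvk, Mvk, Acaca and Scap) and the other pathway genes Tmem97, Mylip and Nr1h3 were named after their values were seen. The methods of the study define a biological replicate of these cells as a single animal, and the labels do not tie libraries to animals. Some genes of the pathway are not reported here.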

Additional observations from a re-analysis of the deposited data

How the results depend on the processing

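No paired analysis was possible because the 1 h and 8 h groups share no replicate number. The number of genes called from TPM was 6 with all libraries, 0 with no filter, 4 with a pseudocount of 0.1, 19 with the identifier series as a term and 7 in series 1 alone, and leaving out each library gave 0 to 568. The number of members called was 0 under each of these except without 8 h replicate 14, with a leave-one-out range of 0 to 17. The median of the 31 members (0.70) was 0.073 with the series as a term and in series 1 alone, and 0.51 to 1.03 on leaving out a library. From counts 0 genes were called under every alternative, and the median of the 24 members (0.49) was 0.26 with the series as a term and 0.15 to 0.66 on leaving out a column. In the count fits the series was assigned by column name, although the column named 8 h replicate 13 matched the TPM table of replicate 14, which belongs to series 1, and the column named 14 matched none, so values with the series term do not separate the series as the TPM tables do.

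Some members changed sign. After median-ratio scaling Srebf1 was -0.054 and Scap -0.029. With the series as a term, and equally in series 1 alone, Insig1 was -0.50, Msmo1 -0.32, Srebf1 -0.30, Sqle -0.15, Scd2 -0.10, Srebf2 -0.087, Scap -0.076 and Fasn -0.059. On leaving out a library, Srebf1 ranged from -0.13 (without 1 h replicate 1) to 0.24 and was -0.091 without 8 h replicate 13, and Abcg1 was 0.078 without 1 h replicate 2. From counts, the series term, by column name, gave Abca1 0.26, Acaca -0.19, Tm7sf2 -0.26, Pmvk -0.044 and Nsdhl -0.0076. On leaving out a column, Srebf1 ranged from -0.052 (without 1 h replicate 1) to 0.40 and Abcg1 from -0.39 (without 8 h replicate 14) to 0.83, and without the latter column Srebf1 was -0.020 and Scap -0.0032. Acaca ranged from -0.063 to 0.23, Tm7sf2 from -0.053 to 0.42 and Scd2 from -0.035 to 0.27, each lowest without the column named 8 h replicate 15. The cause was not tested. Median-ratio scaling moved the member median to 0.59. It left 26 of 31 members higher in series 2 than in series 1 (24.6% of all genes), where the scaling in use gave 27.

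With 2 and 3 libraries, the lone 8 h library of series 1 is assumed to vary like the others. Counts covered part of each library, and the depth behind a TPM value is unknown beyond its ratio.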

Other observations

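The count column named 8 h replicate 14, which matched no TPM table, had a member profile of its own. It held the highest value of the 5 columns for 4 of the 24 members, which were both LXR-induced exporters, the SREBP1 gene and Scap. The share of all genes highest in this column was not taken. Abcg1 was at 10.4 CPM there against 2.75 to 4.42 CPM elsewhere, Abca1 at 304 CPM against 92.1 to 252 CPM, Srebf1 at 783 CPM against 447 to 657 CPM, and Scap at 342 CPM against 235 to 275 CPM. These genes were named after their values were seen, and no replicate of this profile is among the libraries.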
